A study of Mus musculus with 8 samples.

Results

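Collagen and laminin genes were taken from a table of RNA levels in mouse embryos as all protein-coding genes whose symbol is Col, a number, a and a number, or Lama, Lamb or Lamc and a number. The rule found 55 genes of the 55421 identifiers in the table, 44 collagen genes and 11 laminin genes. They were read in 3 classes: 11 fibrillar collagens, 20 genes of the basement membrane, and 24 other collagens. The embryos were at E9.25 with 9 to 11 somites and were either Gcnf-/- or wt. The gene Nr6a1 encodes Gcnf (germ cell nuclear factor), a nuclear receptor with no known ligand that acts mostly as a repressor. Embryos were cut between pharyngeal arches 1 and 2, so an anterior piece held arch 1 and what lies in front of it, and a posterior piece held arch 2 and what lies behind it. Each of the 4 groups, mutant anterior, mutant posterior, wild-type anterior and wild-type posterior, had 2 libraries, numbered 159 and 163 for the mutant and 153 and 156 for the wild type. The labels do not say whether 2 libraries of a group come from separate embryos. The mutant libraries 159 and 163 differed in Xist and Ddx3y in both pieces, as given below, so they are not repeats of one sample. For the wild type this is not known, and a p-value here covers no more than the variation among these samples, which may be technical in the wild-type groups. The labels also do not name the part of Nr6a1 that the mutant allele changes.

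Collagens are proteins of 3 alpha chains wound into a helix, and each chain has its own gene. Fibrillar collagens (types I, II, III, V, XI, XXIV and XXVII) polymerise into the fibrils of mesenchyme, skin, bone and cartilage. Basement membranes, the thin sheets under epithelia and around vessels and nerves, are built from a network of laminin trimers, each with an alpha, a beta and a gamma chain, and a network of type IV collagen, joined by nidogen and perlecan. In the early embryo laminin is needed for basement membranes to form, and type IV collagen gives them mechanical strength.

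The values are TPM, transcript abundances scaled to a fixed total per library, which correct for gene length, so levels of different genes are compared per length. Depth lay between 27064114 and 52957988 reads in genes per library, and the 2 libraries of each group correlated at 0.984 to 0.992 over the genes tested. Nr6a1 was at 240 and 202 TPM in the mutant anterior libraries against 194 and 205 in wild type, and at 158 and 116 in the mutant posterior libraries against 157 and 165. Its gene level did not set the mutant libraries apart, so it gives no check of the genotype labels. Both libraries numbered 159 carried Xist (25.3 and 30.9 TPM), whereas the other 6 were at or below 0.0749 TPM. The Y-linked Ddx3y was at 0.155 and 0.0768 TPM in 159 and at 30.95 and 39.4 TPM in 163, so the 2 mutant libraries of each piece differed in sex, and the sexes were not balanced between the genotypes. A gene was tested when at least 2 libraries had at least 1 TPM, which kept 16699 genes, 42 of the 55 members among them. Every difference below is one of log2(TPM + 1), a scale that makes changes of genes near 1 TPM look smaller than they are. A gene is called, or said to rise or fall, when its limma p adjusted over all genes is under 0.05.

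Basement membrane genes had the highest levels of the family. Col18a1, which encodes the type XVIII collagen of basement membranes and carries the endostatin fragment, had the highest mean of all members in the wild-type anterior, mutant anterior and wild-type posterior groups, at 237, 265 and 266 TPM. In the mutant posterior group Col4a1, a chain of the type IV network, came first at 416 TPM, with Col18a1 at 285 TPM. Col4a2, Lamc1 and Lamb1 were among the other abundant members, and of the fibrillar genes Col2a1 was highest in the wild-type anterior pieces while Col1a1 and Col3a1 were highest in the posterior pieces. Summed over the 55 members, the family held between 0.103% and 0.205% of the TPM of a library.

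Members at the low end included 11 that stayed under 1 TPM in all 8 libraries: Col4a3, Col4a4, Col6a4, Col6a5, Col6a6, Col10a1, Col17a1, Col19a1, Col20a1, Col28a1 and Lama3. The chains that Col4a3 and Col4a4 encode form, with that of Col4a5, the type IV network of mature kidney and lung, and their highest values were 0.0534 and 0.0941 TPM. Lama3, the alpha chain of the epithelial anchoring laminin, was at 0.502 and 0.597 TPM in the mutant posterior libraries and at no more than 0.4 TPM elsewhere. A further 2 members, Col5a3 and Col8a1, reached 1 TPM in 1 mutant anterior library only, at 1.10 and 1.12 TPM, and were not tested. Among the 42 tested members, Col6a3, Col24a1 and Col25a1 reached 1 TPM in 1 group only, so a difference was built into their passing the minimum. Col11a2, Col14a1 and Lamb3 reached it in the posterior groups only, Col7a1 in the anterior groups only and Lama2 in the mutant groups only. A difference between pieces, or for Lama2 between genotypes, was built into theirs.

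**Figure D1:**
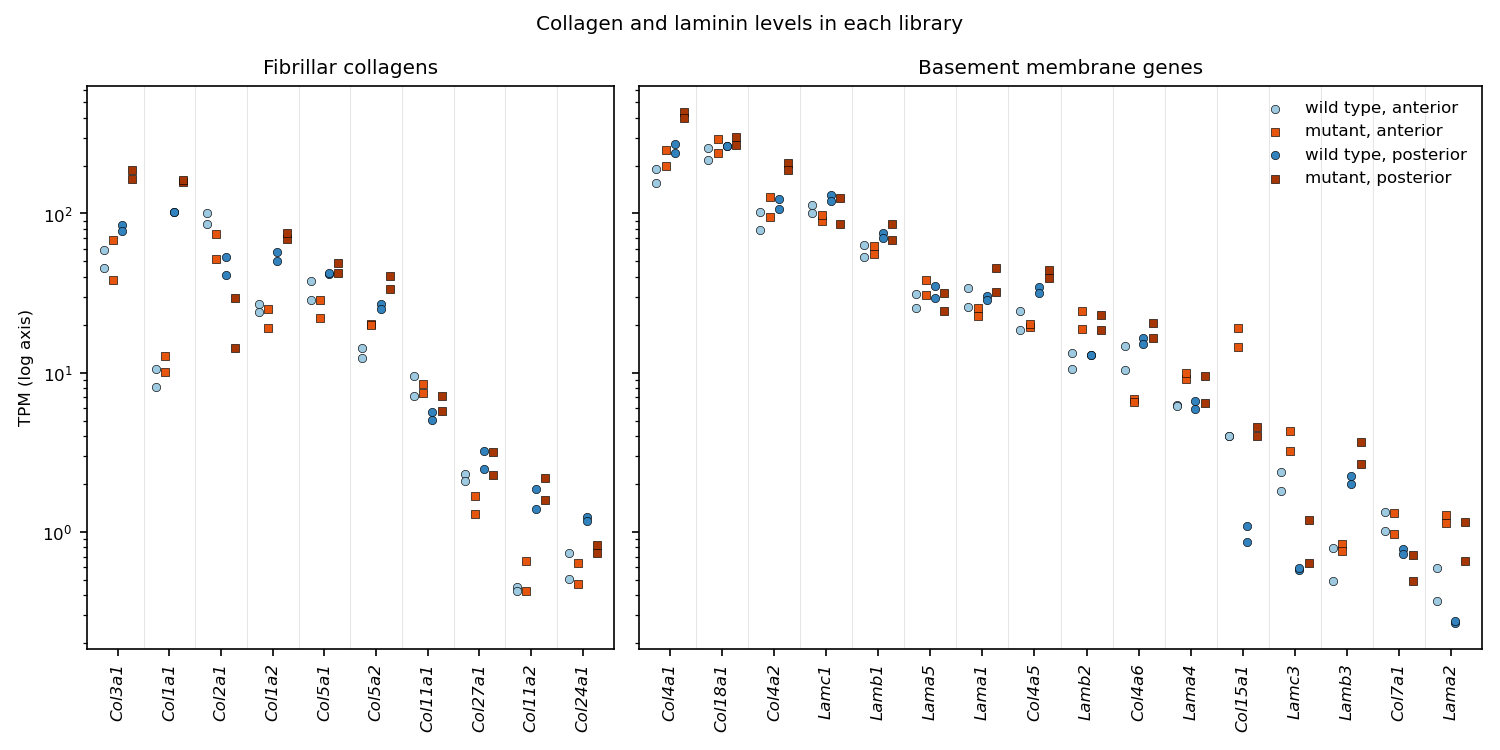
TPM of the tested fibrillar collagens (left panel) and of 16 of the 17 tested basement membrane genes (right panel), with genes along the horizontal axis, a log10 vertical axis, and a point for each library coloured by group. The highest points belong to Col4a1, up to 436 TPM, while Col1a1 ran from 8.14 to 163 TPM and Col15a1 from 0.868 to 19.1 TPM.

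More collagen and laminin genes were called higher than lower in the mutant in both pieces, and the same was true of all genes. In the anterior pieces the number that rose was near the share over all genes. In the anterior pieces 7 of 42 rose and 1 fell, where 23.6% of all 16699 genes were called, 13.3% higher and 10.2% lower. Of the same 42, 13 rose and 1 fell in the posterior pieces, where 11.5% of all genes were called, 8.56% higher and 2.93% lower. Col25a1 is among the anterior calls and Col6a3 among the posterior ones, and without the 3 genes that reached 1 TPM in 1 group only the counts of 39 were 6 and 1 in the anterior and 12 and 1 in the posterior pieces. Both mutant libraries lay above both wild-type ones for 17 members and below them for 6 in the anterior pieces, where 67.3% of all genes did not overlap, 35.1% higher and 32.3% lower. The posterior counts were 27 above and 3 below, where 53.2% of all genes did not overlap, 33.4% higher and 19.8% lower. The median difference of the members was 0.18 in the anterior and 0.37 in the posterior pieces, beside 0.02 and 0.05 for all genes tested. In pieces of whole tissue, more cells of a type that makes a matrix protein and more RNA of its gene per cell cannot be told apart.

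**Figure D2:**
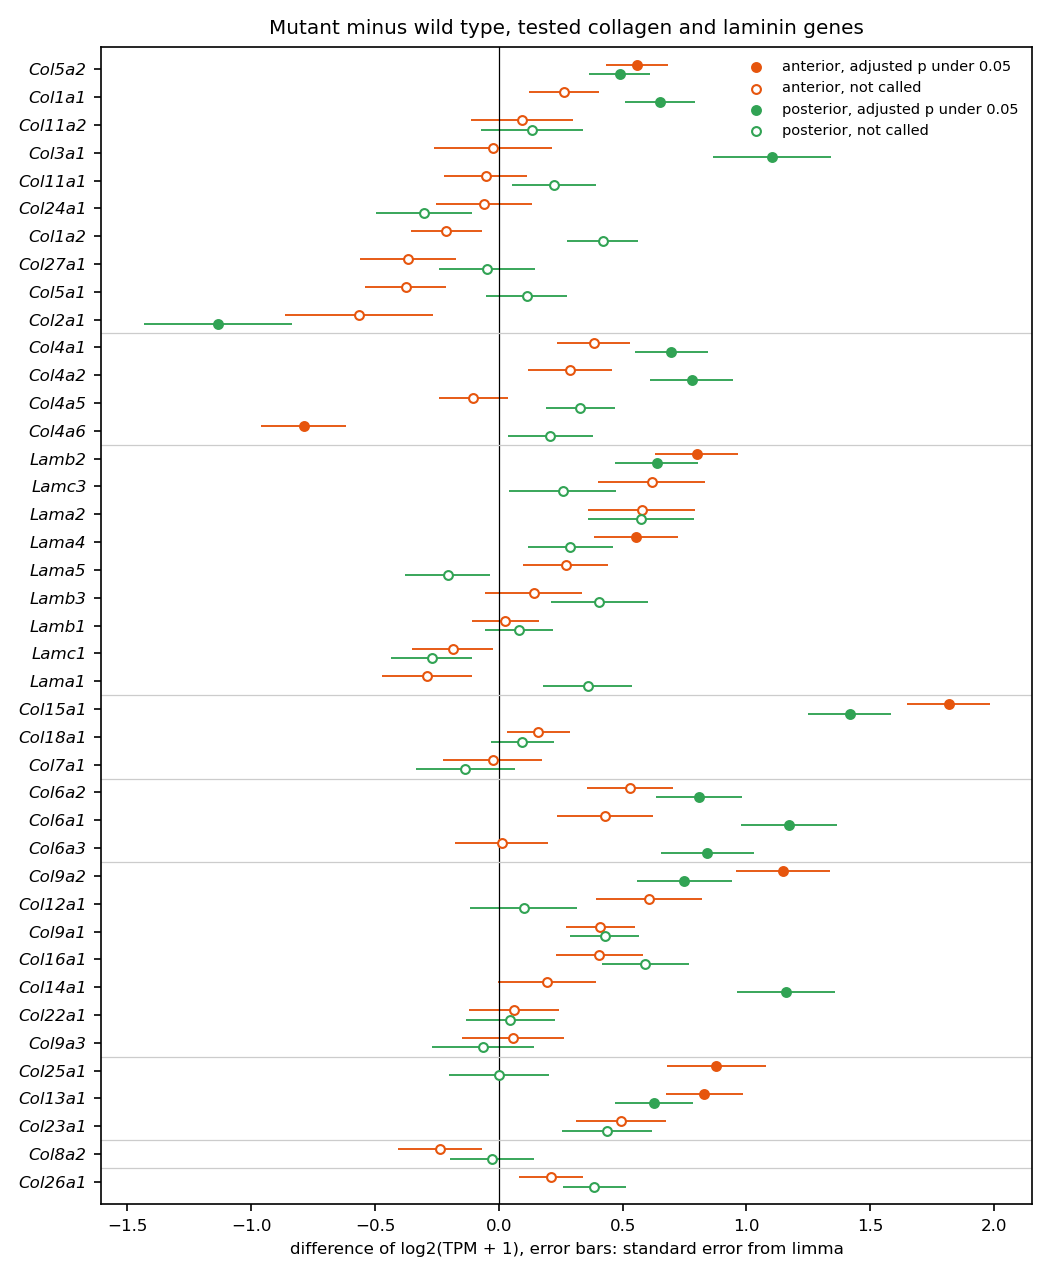
Mutant minus wild type on the scale of log2(TPM + 1) for 41 of the 42 tested members, with bars of 1 standard error, in the anterior and posterior pieces. Filled points passed an adjusted p of 0.05: 7 higher and 1 lower in the anterior pieces, 13 higher and 1 lower in the posterior pieces.

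Col15a1, Col9a2, Col13a1, Lamb2 and Col5a2 rose in both pieces, which is 5 of the 7 that rose in the anterior and 5 of the 13 that rose in the posterior pieces. Col15a1 (ENSMUSG00000028339; mm10 chromosome 4, 47208161 to 47313167, plus strand) encodes the type XV collagen that links basement membranes to the fibrils beneath them. It was at 14.5 and 19.1 TPM in the mutant anterior libraries and at 3.98 and 4.03 TPM in wild type. In the posterior pieces the mutant libraries had 3.99 and 4.56 TPM and the wild-type libraries 0.868 and 1.09 TPM. All mutant values lay above all wild-type values of the same piece, and the mutant posterior level was close to the wild-type anterior level. The differences were 1.82 ± 0.17 (SE, adjusted p = 0.00029), a ratio of mean TPM of 4.19, and 1.42 ± 0.17 (adjusted p = 0.0016), a ratio of 4.38. Col15a1 had the largest genotype difference of the 42 members in both pieces.

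Sequence windows at the starts of these 5 genes, from RefSeq (GRCm38.p6), were found for all but Col5a2. The 5 genes were picked by their calls, and a part of these sequences in the calls was not tested. The 250 bases before the RefSeq start are printed for Col13a1 and Col15a1, while those of Col9a2 and Lamb2 hold annotated exon bases. For Col15a1 they end at 47208011, ahead of the gene start at 47208161 given above. The Col13a1 window (chr10:61979109-61979358, minus strand) holds a TATAAA in capitals, and the Col15a1 window (chr4:47207762-47208011, plus strand) holds none. The TATAAA of Col13a1 lies near the beginning of the printed 250 bases, the end farthest from the start.
Col13a1: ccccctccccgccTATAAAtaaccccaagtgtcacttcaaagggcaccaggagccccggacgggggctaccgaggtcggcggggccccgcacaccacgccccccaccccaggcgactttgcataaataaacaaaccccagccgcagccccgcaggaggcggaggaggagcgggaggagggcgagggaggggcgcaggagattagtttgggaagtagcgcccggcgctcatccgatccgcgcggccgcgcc
Col15a1: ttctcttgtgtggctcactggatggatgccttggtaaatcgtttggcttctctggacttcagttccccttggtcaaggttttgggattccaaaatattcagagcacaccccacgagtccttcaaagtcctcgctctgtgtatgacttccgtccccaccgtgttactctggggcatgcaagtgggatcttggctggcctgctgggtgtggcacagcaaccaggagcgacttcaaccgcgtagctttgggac
TATAAA, read on both strands, occurs in 13.6% of the 32851 mouse windows of 300 bases (250 before and 50 after the start), and in those of 5 of the 40 members with a window. AGGTCA, a nuclear receptor core sequence, occurs in 16.3% of all windows and in those of 8 of the 40 members, none of them Col15a1, Col9a2, Col13a1 or Lamb2. TCAAGGTCA, an extended form that contains AGGTCA, occurs in 0.423% of all windows and in none of those of the 40 members. ACGTG occurs in 19.6% of all windows and in those of 5 of the 40 members. GGGCGG occurs in 35.7% of all windows and in those of 25 of the 40 members. The shares are per window and the member counts per gene, and the 40 members had 44 windows. Of these 44, 5 held TATAAA, 8 AGGTCA, 5 ACGTG and 26 GGGCGG, and none held TCAAGGTCA.

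Col9a2, Col13a1, Lamb2 and Col5a2 had smaller differences than Col15a1. Col9a2, a chain of the type IX collagen that sits on cartilage fibrils, was at 14.3 and 17.3 TPM in the mutant anterior libraries against 7.89 and 5.43, and at 8.17 and 6.84 TPM in the mutant posterior libraries against 3.60 and 4.53. Col13a1, a collagen anchored in the cell membrane, was at 8.58 and 10.0 TPM against 5.02 and 4.55 in the anterior pieces, and at 16.6 and 14.0 TPM against 10.8 and 8.42 in the posterior pieces. Mutant and wild-type libraries did not overlap for either gene in either piece. The differences were 1.15 ± 0.19 (adjusted p = 0.004) and 0.75 ± 0.19 (adjusted p = 0.04) for Col9a2. For Col13a1 they were 0.83 ± 0.16 (adjusted p = 0.0068) and 0.63 ± 0.16 (adjusted p = 0.037). Col5a2, a chain of the type V collagen that starts fibrils, is taken up with the fibrillar genes and Lamb2 with the laminins.

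Both chains of the common type IV collagen rose in the posterior pieces. Col4a1 (ENSMUSG00000031502) and Col4a2 (ENSMUSG00000031503) encode them, and they lie head to head on chromosome 8 of mm10, with Col4a1 starting at 11312826 on the minus strand and Col4a2 at 11312805 on the plus strand. Their annotated exons share 22 bases, and since the libraries do not mark strand, reads there cannot be assigned to one of them. Col4a1 was at 436 and 397 TPM in the mutant posterior libraries against 240 and 274 TPM in wild type, and Col4a2 at 208 and 187 against 106 and 123 TPM. The mutant libraries lay above both wild-type libraries, by 0.70 ± 0.15 (adjusted p = 0.02) for Col4a1 and by 0.78 ± 0.17 (adjusted p = 0.022) for Col4a2. Anterior Col4a1 was at 197 and 252 against 189 and 154 TPM (adjusted p = 0.093), and Col4a2 at 94.7 and 127 against 102 and 78.5 TPM (adjusted p = 0.25), so neither passed.

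Col4a5 and Col4a6, the other head-to-head pair, lie on the X chromosome, with starts 1343 bases apart. Col4a6 was the single member that fell in the anterior pieces, at 6.88 and 6.59 TPM in the mutant against 14.7 and 10.3 TPM, a difference of -0.79 ± 0.17 (adjusted p = 0.012). Its posterior values were 20.4 and 16.6 against 16.6 and 15.1 TPM (adjusted p = 0.48), with 163 just above the higher wild-type library. Col4a5 had 19.4 and 20.3 TPM against 24.4 and 18.7 in the anterior pieces (adjusted p = 0.63), with overlapping groups. Its posterior values were 44.4 and 39.3 against 34.7 and 31.5 TPM (adjusted p = 0.16). Of the mutant anterior libraries, 159 carried Xist and 163 did not, and their Col4a6 levels were 6.88 and 6.59 TPM. The part of sex in the values of these X-linked genes was not tested.

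Among the 10 tested laminin genes 2 rose in the anterior pieces and 1 in the posterior pieces, and the most abundant chains did not pass. Of all genes, 13.3% rose in the anterior and 8.56% in the posterior pieces. Lamb2, the beta chain known from nerve-muscle contacts and the kidney filter, was at 18.7 and 24.4 TPM in the mutant anterior libraries against 13.3 and 10.5, and at 22.9 and 18.5 TPM in the posterior ones against 12.8 and 12.9. The rises were 0.80 ± 0.17 (adjusted p = 0.01) and 0.64 ± 0.17 (adjusted p = 0.044). Lama4, the alpha chain of vessel basement membranes, was at 9.16 and 10.0 TPM in the mutant anterior libraries against 6.24 and 6.17, a rise of 0.55 ± 0.17 (adjusted p = 0.047). The posterior groups of Lama4 overlapped, at 9.54 and 6.50 against 6.67 and 5.90 TPM (adjusted p = 0.31).

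The alpha, beta and gamma chains with the highest levels were Lama1 and Lama5, Lamb1 and Lamc1, which make up the laminins of early embryonic basement membranes. Lamb1, which was at 55.8 and 62.3 TPM in the mutant anterior libraries against 63.2 and 52.9 in wild type, and at 86.3 and 68.3 against 75.4 and 69.9 in the posterior ones, overlapped in both pieces. Lamc1 had 90.05 and 97.4 against 114 and 100 TPM in the anterior pieces, and 125 and 85.7 against 131 and 120 TPM in the posterior pieces. Neither gene passed in either piece, with adjusted p from 0.32 to 0.91. Lama1 was at 22.7 and 25.4 against 33.9 and 25.8 TPM in the anterior pieces (adjusted p = 0.28) and at 45.6 and 32.0 against 30.4 and 28.8 TPM in the posterior pieces (adjusted p = 0.23). Lama5 was at 30.5 and 38.3 against 31.03 and 25.6 TPM (adjusted p = 0.29) and at 31.9 and 24.3 against 35.3 and 29.6 TPM (adjusted p = 0.48). Lama1 was thus lower and Lama5 higher on average in the mutant anterior pieces, with the opposite signs in the posterior pieces, and none of these 4 differences passed.

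Over the basement membrane class, 3 of 17 tested genes rose and 1 fell in the anterior pieces, and 4 rose in the posterior pieces. The shares of all genes were 13.3% higher and 10.2% lower in the anterior pieces, and 8.56% and 2.93% in the posterior ones. The median difference of the class was 0.17 in the anterior and 0.33 in the posterior pieces, beside 0.02 and 0.05 over all genes. Col18a1 had the highest mean of all members in every group but the mutant posterior one. It was at 239 and 292 against 258 and 217 TPM in the anterior pieces (adjusted p = 0.4) and at 301 and 269 against 266 and 267 TPM in the posterior pieces (adjusted p = 0.68). Col7a1, which anchors skin to its base, did not exceed 1.34 TPM and did not pass.

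Of the 10 tested fibrillar collagens, 1 rose in the anterior pieces, and 3 rose and 1 fell in the posterior pieces. Among all genes 13.3% rose and 10.2% fell in the anterior pieces, and 8.56% and 2.93% in the posterior ones. The medians of the class were -0.06 and 0.18, beside 0.02 and 0.05 over all genes. Over the alternatives these medians ran from -0.27 to 0.11, a change of sign, and from 0.0622 to 0.42. Col3a1, the type III collagen of soft tissues and vessel walls, was at 164 and 188 TPM in the mutant posterior libraries against 85.2 and 77.3, a rise of 1.10 ± 0.24 (adjusted p = 0.022) and a ratio of 2.16. Its anterior libraries overlapped, at 38.1 and 68.0 against 59.1 and 45.3 TPM (adjusted p = 0.96). Col1a1, a chain of the type I collagen of mesenchyme and later bone, was at 157 and 163 TPM against 101.4 and 101.7 in the posterior pieces, a rise of 0.65 ± 0.14 (adjusted p = 0.022). The anterior level of Col1a1 was low in both genotypes, at 10.1 and 12.7 against 10.5 and 8.14 TPM (adjusted p = 0.21).

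Col1a2, the partner chain of type I collagen, had 68.6 and 75.7 TPM in the mutant posterior libraries against 57.6 and 49.98 TPM (adjusted p = 0.098). Its anterior libraries were at 19.0 and 24.999 against 26.9 and 24.0 TPM (adjusted p = 0.32). Col5a2 was at 20.3 and 20.003 TPM in the mutant anterior libraries against 14.3 and 12.4, a rise of 0.56 ± 0.12 (adjusted p = 0.013). Posterior Col5a2 was at 40.5 and 33.6 against 27.1 and 24.95 TPM, a rise of 0.49 ± 0.12 (adjusted p = 0.04). Its partner Col5a1 did not pass, at 22.0 and 28.7 against 37.7 and 28.7 TPM in the anterior pieces (adjusted p = 0.13) and at 48.8 and 41.98 against 41.4 and 42.1 TPM in the posterior pieces (adjusted p = 0.7). The chains of one collagen type therefore did not all pass together. In the posterior pieces Col1a1 and Col5a2 passed, and Col1a2 and Col5a1 did not. Another type V gene, Col5a3, was not tested. Both mutant posterior libraries of Col1a2 lay above both wild-type ones, as for Col1a1. A difference between the chains of a type was not tested.

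Col2a1, the type II collagen of cartilage and of the notochord sheath, went the other way. Its posterior values were 29.6 and 14.4 TPM in the mutant against 40.8 and 53.2 TPM, a fall with a difference of -1.14 ± 0.30 (adjusted p = 0.044) and a ratio of 0.467. Without mutant posterior 163 the difference of Col2a1 was -0.64 (adjusted p = 0.12), and without 159 it was -1.63 (adjusted p = 0.0048). The call was also lost by median-of-ratios scaling and by quantile normalization. The anterior values were 52.0 and 74.5 against 100.3 and 85.4 TPM, with no overlap and a difference of -0.56 ± 0.30 (adjusted p = 0.21). The 2 mutant posterior libraries lay farther from each other than the higher of them lay from the lower wild-type library. Sclerotome and cartilage markers, 8 genes that include Pax1, Pax9 and Sox9, summed to 142 to 146 TPM in the mutant posterior libraries against 157 to 158 in wild type. Of the 8, 1 was called higher and none lower, where 8.56% of all genes were higher and 2.93% lower. Notochord markers, 5 genes, summed to 224 to 254 against 174 to 183 TPM in the posterior pieces, with 2 of 5 higher and none lower. In the anterior pieces the sclerotome and cartilage markers summed to 74.5 to 91.5 TPM in the mutant against 96.0 to 108 in wild type. The notochord markers summed to 39.6 to 44.0 against 58.7 to 60.3 TPM there. Lower in the anterior pieces were 2 of 8 and 2 of 5, and none was higher. Among all genes 13.3% rose and 10.2% fell in the anterior pieces. The part of these cell types in the Col2a1 values was not tested.

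Other collagens that rose in the posterior pieces included Col6a1 and Col6a2, chains of type VI, which forms beaded filaments around cells. Col6a1 was at 10.9 and 11.2 TPM in the mutant posterior libraries against 3.90 and 4.86, Col6a2 at 5.80 and 5.58 against 2.84 and 2.79, and Col6a3 at 2.28 and 2.20 against 0.876 and 0.743 TPM. The differences were 1.17 ± 0.20 (adjusted p = 0.0075) for Col6a1 and 0.81 ± 0.17 (adjusted p = 0.021) for Col6a2. For none of the 3 did the posterior libraries overlap, but Col6a3 was tested only through the mutant posterior group, so its values are a description. Anterior Col6a1 had 5.33 and 6.37 against 5.11 and 3.22 TPM (adjusted p = 0.15), Col6a2 had 3.38 and 4.64 against 2.77 and 2.16 TPM (adjusted p = 0.057), and Col6a3 was at or under 0.205 TPM in all 4 libraries.

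Col14a1, a fibril-associated collagen of mesenchyme, was at 8.42 and 5.86 TPM in the mutant posterior libraries against 2.68 and 2.50, a rise of 1.16 ± 0.20 (adjusted p = 0.0084). Its anterior values were all at or under 0.416 TPM. Col25a1, a membrane collagen of neurons, was at 1.31 and 1.64 TPM in the mutant anterior libraries against 0.458 and 0.240. It was tested only through that group, so these values too are a description. Posterior Col25a1 was between 0.513 and 0.650 TPM in all 4 libraries, with overlapping groups. Over the 15 tested genes of this class, 3 were called higher in the anterior and 6 in the posterior pieces, with Col25a1 and Col6a3 counted, and none lower. The shares of all genes were 13.3% higher and 10.2% lower in the anterior pieces, and 8.56% and 2.93% in the posterior ones.

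The calls depended on single libraries to different extents. In the anterior pieces Col15a1, Col9a2 and Col13a1 passed whichever library was left out. Col5a2 was lost without mutant anterior 159 or 163 or wild-type anterior 156 (adjusted p = 0.056, 0.058 and 0.11), and Lamb2 without mutant anterior 163 or wild-type anterior 156 (0.069 and 0.075). Col4a6 was lost without mutant anterior 163 or wild-type anterior 153 (adjusted p = 0.062 and 0.093). Col25a1 fell under the minimum level without either mutant anterior library. Lama4 was lost without any of the 4 anterior or either of the wild-type posterior libraries (adjusted p from 0.07 to 0.18).

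In the posterior pieces the count rested on both wild-type libraries. Without wild-type posterior 153, 1 of the 14 calls held, Col15a1, and without wild-type posterior 156, 2 held, Col15a1 and Col6a1. The adjusted p of the lost calls was then between 0.064 and 0.22, and over all genes the share called was 2.32% and 3.78%. Without mutant posterior 159 the count was 7, of which 6 were among the 14, and without 163 it was 9, of which 8 were. Lost without either mutant posterior library were Col6a2 and Col9a2, and Col6a3 then fell under the minimum level.

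The genotype difference itself was compared between the pieces. No member passed this test by limma, and 1.01% of all genes were called, 0.413% higher and 0.599% lower. An unadjusted p under 0.05 was found for 8 of 42 members and for 12.6% of all genes. The median over the members was -0.05 (anterior minus posterior), beside -0.04 over all genes. The 3 members with the smallest unadjusted p were Col4a6 at -0.995 ± 0.242 (adjusted p = 0.12), Col14a1 at -0.97 ± 0.28 (adjusted p = 0.18) and Col3a1 at -1.13 ± 0.34 (adjusted p = 0.19). For all 3 the difference of mutant minus wild type was the lower one in the anterior pieces. Col3a1 passed when mutant anterior 163 was left out (adjusted p = 0.036), whose level was 68.0 TPM against 38.1 TPM in 159, and had adjusted p from 0.15 to 0.47 without any other library. Genes called in 1 piece and not in the other are therefore not shown to differ between the pieces.

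Posterior and anterior pieces of the same genotype were compared next. In wild type 11 of 42 members were higher and 2 lower in the posterior piece, where 14.5% of all genes were called, 7.86% higher and 6.65% lower. In the mutant 18 were higher and 7 lower, where 16.1% of all genes were called, 8.01% higher and 8.1% lower. Without the 3 genes at 1 TPM in 1 group only, the counts of 39 were 11 and 2 in wild type and 17 and 7 in the mutant. The higher genes in both counts still include Col11a2, Col14a1 and Lamb3, which were tested only through the posterior groups. All 11 genes higher in wild type were also higher in the mutant (11 of the 18), and both lower genes were lower there too (2 of the 7). Members with no overlap between the pieces numbered 23 higher and 10 lower in wild type, where 63.1% of all genes did not overlap, 21.5% higher and 41.7% lower. In the mutant they numbered 24 and 10, where 52.1% of all genes did not overlap, 22% higher and 30% lower. The wild-type and mutant comparisons share no library in their means, but each shares its libraries with the genotype comparisons. The spread of a gene was estimated from all 8 libraries, so the wild-type and mutant tests are not independent.

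**Figure D3:**
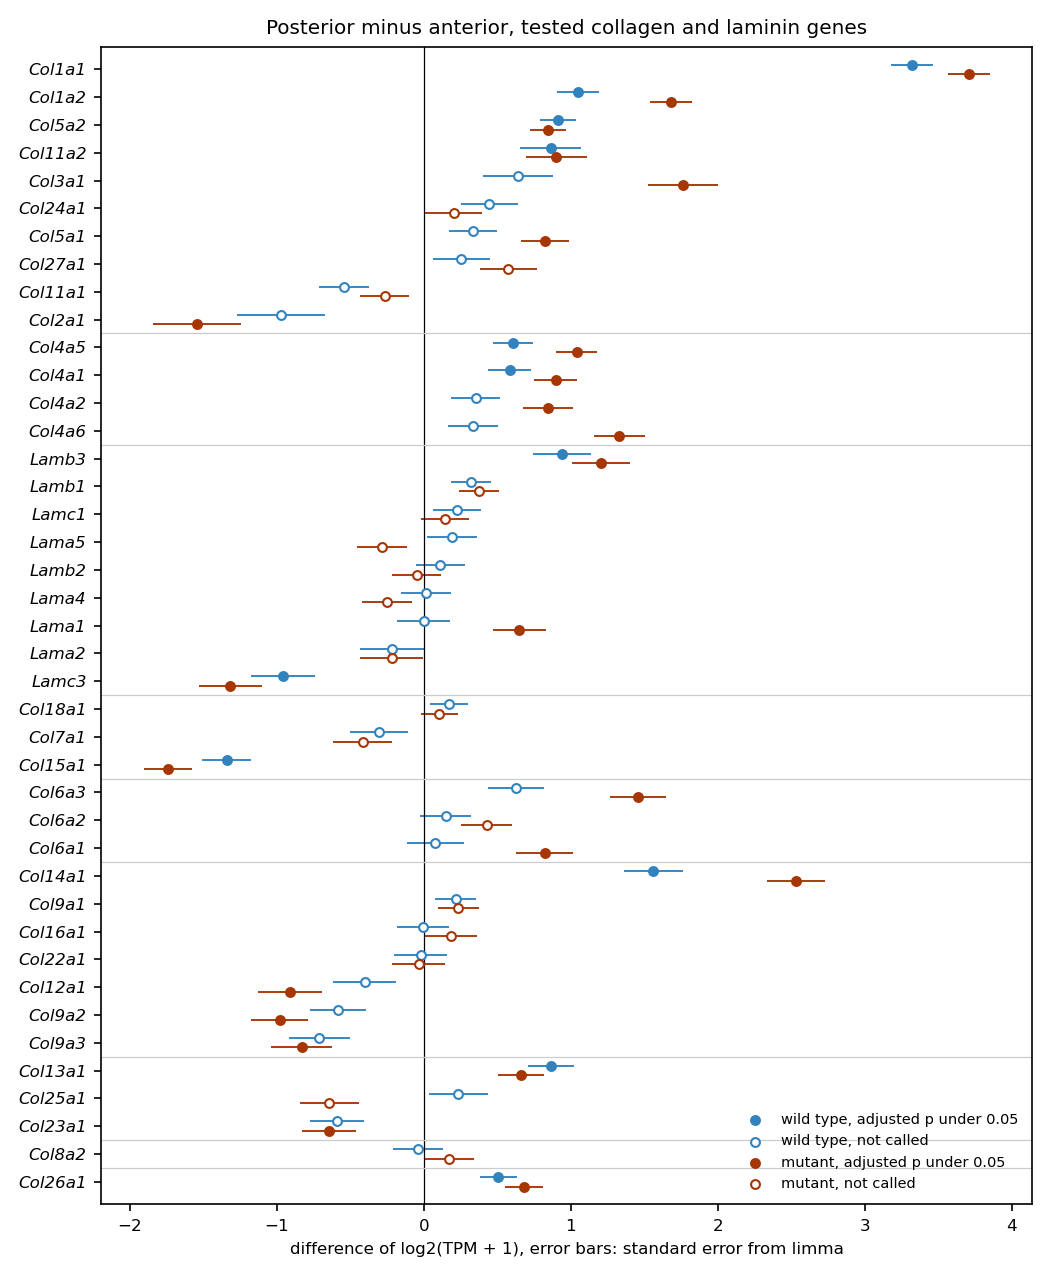
Posterior minus anterior on the scale of log2(TPM + 1) for 41 of the 42 tested members in wild type and mutant, with bars of 1 standard error. Of those shown, filled points passed an adjusted p of 0.05, 12 in wild type and 24 in the mutant, with Col1a1 farthest to the right in both.

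Of the 10 fibrillar collagens, 4 were higher in the wild-type posterior piece and 6 were higher and 1 lower in the mutant one, with medians of 0.54 and 0.83 beside -0.10 and -0.04 over all genes. Among all genes 7.86% were higher and 6.65% lower in wild type, and 8.01% and 8.1% in the mutant. Col1a1, with the values given above, was higher in the posterior piece by 3.32 ± 0.14 in wild type (adjusted p = 1.1e-06) and by 3.71 ± 0.14 in the mutant (adjusted p = 5.6e-07), a ratio of mean TPM of 10.9 and 14.0. Col1a2 was higher by 1.05 ± 0.14 (adjusted p = 0.0015) and 1.68 ± 0.14 (adjusted p = 8.8e-05). Col5a2 was higher by 0.91 ± 0.12 (adjusted p = 0.0015) and 0.84 ± 0.12 (adjusted p = 0.0021). The difference of Col1a1 was larger than that of Col1a2 in both genotypes.

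Col11a2, a chain of the type XI collagen of cartilage, was at 1.86 and 1.39 TPM in the wild-type posterior libraries against 0.450 and 0.425 anterior, and at 2.18 and 1.58 against 0.424 and 0.652 TPM in the mutant. It was called in both genotypes, but Col11a2 was tested only through the posterior groups, so its values by piece are a description. Col3a1 and Col5a1 passed in the mutant, at 1.76 ± 0.24 (adjusted p = 0.0013) and 0.82 ± 0.16 (adjusted p = 0.0091), where wild type had 0.64 ± 0.24 (adjusted p = 0.11) and 0.33 ± 0.16 (adjusted p = 0.21). Whether a region difference depends on the genotype is the same test as the one of the genotype difference between pieces, which no member passed. Col2a1 was lower in the posterior piece of the mutant by a difference of -1.54 ± 0.30 (adjusted p = 0.0083), and in wild type its difference was -0.97 ± 0.30 (adjusted p = 0.064).

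Basement membrane genes differed by piece in both directions. Of 17 tested, 4 were higher and 2 lower in the wild-type posterior piece, and 7 higher and 2 lower in the mutant. The shares of all genes were 7.86% higher and 6.65% lower in wild type, and 8.01% and 8.1% in the mutant. Lamb3, the beta chain of the epithelial anchoring laminin, was higher in both genotypes. It was at 2.01 and 2.26 against 0.790 and 0.489 TPM in wild type and at 2.69 and 3.67 against 0.837 and 0.763 TPM in the mutant, with no overlap between pieces. The difference in wild type was 0.94 ± 0.20. Lamb3 was tested only through the posterior groups, so its values by piece are a description. Surface ectoderm markers, 6 genes that include Epcam and Krt8, also summed to more in the posterior pieces, 1081 to 1085 against 623 to 692 TPM in wild type, and their part in this result was not tested.

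Col4a5 was higher in the posterior piece by 0.61 ± 0.14 (adjusted p = 0.019) in wild type and 1.04 ± 0.14 (adjusted p = 0.0012) in the mutant, and Col4a1 by 0.58 ± 0.15 (adjusted p = 0.03) and 0.90 ± 0.15 (adjusted p = 0.0036). In the mutant all 4 tested type IV chains passed, with Col4a6 at 1.33 ± 0.17 (adjusted p = 0.00096) and Col4a2 at 0.84 ± 0.17 (adjusted p = 0.0095). Lama1 passed in the mutant, at 0.65 ± 0.18 (adjusted p = 0.041). Its 2 wild-type groups overlapped.

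Col15a1 and Lamc3 were lower in the posterior piece in both genotypes. Col15a1 had a difference of -1.34 ± 0.17 in wild type (adjusted p = 0.00091) and -1.74 ± 0.17 in the mutant (adjusted p = 0.00017). Lamc3, a gamma chain, was at 0.574 and 0.596 TPM in the wild-type posterior libraries against 2.36 and 1.82 anterior, and at 1.19 and 0.639 against 3.20 and 4.31 TPM in the mutant. Its differences were -0.96 ± 0.22 (adjusted p = 0.018) and -1.32 ± 0.22 (adjusted p = 0.0036). Col15a1 was therefore highest in the mutant anterior pieces and lowest in the wild-type posterior ones.

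The remaining collagens varied by piece as follows. Col14a1, with the widest posterior difference after Col1a1 in wild type, differed by 1.56 ± 0.20 and, in the mutant, by 2.53 ± 0.20. It was tested only through the posterior groups, so its values by piece are a description. Col26a1 was at 38.2 and 37.2 against 27.9 and 24.7 TPM in wild type and at 48.0 and 51.2 against 27.1 and 34.5 TPM in the mutant, and passed in both (adjusted p = 0.03 and 0.007). Col13a1 passed in both too, by 0.86 ± 0.16 (adjusted p = 0.0065) and 0.66 ± 0.16 (adjusted p = 0.021). Col6a1 was higher in the posterior piece of the mutant by 0.82 ± 0.20 (adjusted p = 0.021), and in wild type its difference was 0.08 ± 0.20 (adjusted p = 0.83). Col6a3 was at 0.876 and 0.743 against 0.205 and 0.140 TPM in wild type and at 2.28 and 2.20 against 0.193 and 0.169 TPM in the mutant, with no overlap between pieces in either genotype. Col9a2, Col12a1, Col9a3 and Col23a1 were lower in the mutant posterior piece, with differences from -0.98 to -0.65.

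The lower members were fibril-associated or membrane collagens with mutant anterior levels above their posterior ones. Col12a1, which coats fibrils in dense connective tissue, was at 1.92 and 1.24 TPM against 3.88 and 3.74, and Col23a1, a membrane collagen, at 36.0 and 25.005 against 41.1 and 54.9 TPM. Col9a3 was at 2.28 and 2.23 against 5.19 and 4.42 TPM, and 6.07% of its exon bases are shared with Tcfl5, which lies on the opposite strand and reached 40.1 TPM, so that its reads are uncertain. In wild type none of these 4 passed. Col12a1 was at 1.32 and 1.45 against 2.74 and 1.67 TPM (adjusted p = 0.25), and Col23a1 at 22.8 and 21.1 against 34.1 and 32.9 TPM (adjusted p = 0.064). Col9a3 was at 1.88 and 3.01 against 3.87 and 5.36 TPM (adjusted p = 0.052), and Col9a2 had an adjusted p of 0.078.

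The region calls held without any 1 library for 5 of 13 in wild type and for 12 of 25 in the mutant. The count in wild type was 5 without wild-type anterior 156 or posterior 153 and 6 without posterior 156, and Col1a1, Col1a2, Col14a1, Col15a1 and Col5a2 were the ones kept. In the mutant it was 16 without anterior 159.

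Summed by class, the fibrillar collagens were at 521 and 528 TPM in the mutant posterior libraries against 365 and 360 in wild type, and at 172 and 241 TPM in the mutant anterior libraries against 262 and 215. The groups did not overlap in the posterior pieces and did in the anterior ones. The basement membrane genes summed to 1349 and 1163 TPM in the mutant posterior libraries against 965 and 989, and to 809 and 986 against 863 and 711 TPM in the anterior pieces. The other collagens summed to 182 and 163 against 122 and 115 TPM in the posterior pieces and to 143 and 175 against 118 and 105 TPM in the anterior pieces. Of the 3 classes, only the last had no overlap between genotypes in both pieces.

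**Figure D4:**
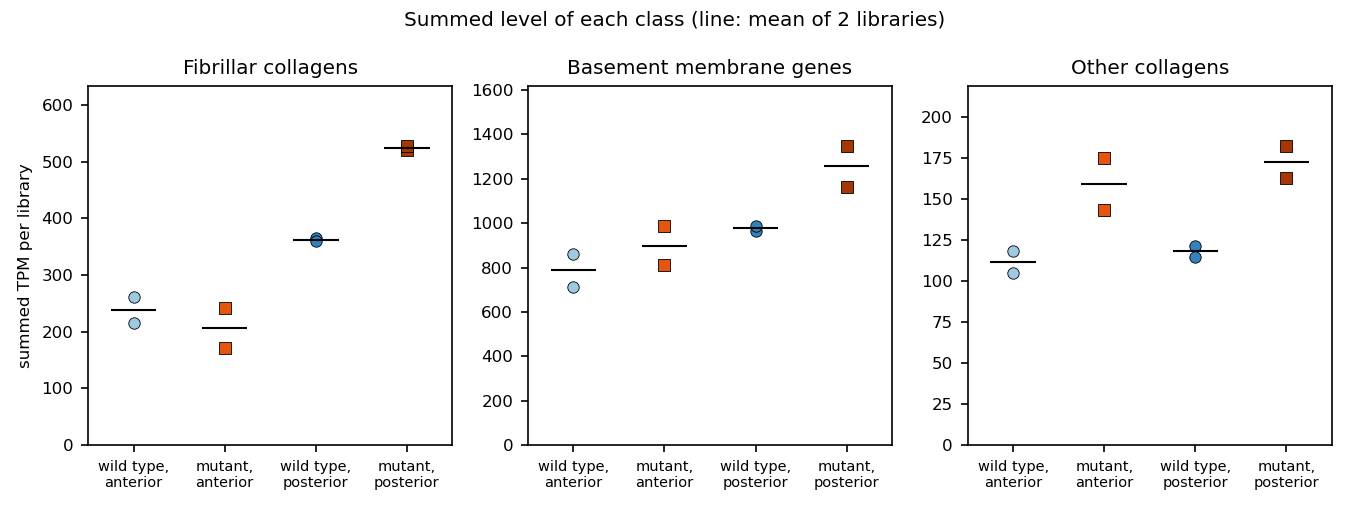
Summed TPM of fibrillar, basement membrane and other collagens for each of the 8 libraries, one point a library, by group, with a line at each group's mean. In the posterior pieces both mutant libraries lie above both wild-type libraries in all 3 classes, up to 1349 TPM for basement membrane genes.

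Most members also shifted together between the libraries of one group, except in the wild-type posterior group. In the wild-type anterior group library 153 was higher than 156 for 38 of 42 members, with a median difference of 0.23 beside 0.03 over all genes. In the mutant anterior group library 163 was higher than 159 for 33, and in the mutant posterior group 159 was higher than 163 for 32. The median differences (159 minus 163) were -0.21 and 0.19, beside -0.06 and -0.03 over all genes. In the wild-type posterior group the split was 23 against 19, with a median difference (153 minus 156) of 0.04 beside 0.12 over all genes. The members are thus not independent of each other within a library.

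A ratio between chains removes such a shift only as far as both chains share it equally. Col1a1 to Col1a2 was 0.365 ± 0.036 (SD, 2 libraries) in wild-type anterior, 0.519 ± 0.014 in mutant anterior, 1.90 ± 0.19 in wild-type posterior and 2.22 ± 0.10 in mutant posterior pieces. The common type I trimer holds more of the Col1a1 chain than of Col1a2, and the RNA ratio was above 1 in the posterior pieces only. That placing depends on the length used, since the exon union of Col1a2 is 12426 bases and its longest coding transcript 5348. Per longest coding transcript the ratio was 0.174, 0.247, 0.904 and 1.06 in the same order.

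Col4a1 to Col4a2 stayed near 2 throughout, at 1.91 ± 0.08, 2.04 ± 0.07, 2.24 ± 0.02 and 2.11 ± 0.01 in the same order, and the common type IV trimer likewise holds more of the Col4a1 chain. Col4a5 to Col4a6 was 1.73 ± 0.11 in wild-type anterior and 2.95 ± 0.18 in mutant anterior pieces, and 2.09 ± 0.01 and 2.27 ± 0.14 in the posterior pieces. Lamb1 to Lamb2 was 4.89 ± 0.20 and 2.77 ± 0.31 in the anterior and 5.64 ± 0.33 and 3.73 ± 0.05 in the posterior pieces, wild type before mutant. Lama1 to Lama5 was 1.05 ± 0.06 and 0.704 ± 0.058 in the anterior and 0.917 ± 0.078 and 1.37 ± 0.08 in the posterior pieces. The Lamb1 to Lamb2 values of the genotypes did not overlap in either piece and were lower in the mutant libraries, and those of Lama1 to Lama5 were lower in the mutant anterior and higher in the mutant posterior libraries. The ratios are given as values and were not tested.

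**Figure D5:**
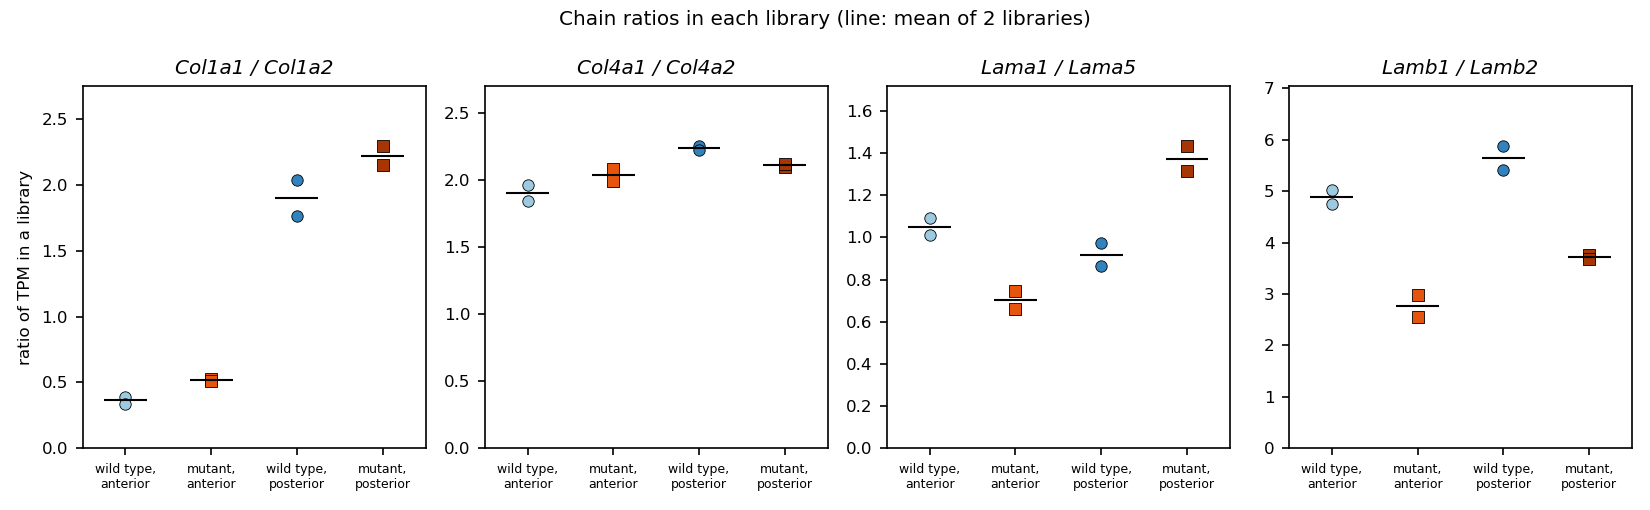
Ratio of TPM between chains for each library, 1 panel a pair of chains, with groups along the horizontal axis and a line at the mean of each group. The mutant libraries lie below wild type for Lamb1 to Lamb2 in both pieces.

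Among the enzymes and chaperones that build collagen, P4ha1, P4ha2 and Pcolce rose in both pieces. Of 30 tested genes for collagen synthesis and crosslinking, 6 rose and 3 fell in the anterior pieces, where 13.3% of all genes rose and 10.2% fell, and the median was -0.06 with 12 of 30 differences above 0. In the posterior pieces 7 rose and none fell, where 8.56% of all genes rose and 2.93% fell, and the median was 0.20 with 23 of 30 above 0. P4ha1, the catalytic chain of a proline hydroxylase that stabilises the helix, rose by 0.70 ± 0.11 (adjusted p = 0.0037) and 1.00 ± 0.11 (adjusted p = 0.0014). P4ha2, another such chain, rose by 0.88 ± 0.16 (adjusted p = 0.0057) and 0.79 ± 0.16 (adjusted p = 0.017). Pcolce, which helps to trim procollagen, was at 35.0 and 54.0 TPM in the mutant anterior libraries against 16.6 and 23.9 and at 92.9 and 112 TPM in the posterior ones against 20.3 and 30.4, rises of 1.09 ± 0.26 (adjusted p = 0.017) and 2.00 ± 0.26 (adjusted p = 0.0024). Serpinh1, the collagen chaperone, did not pass in either piece (adjusted p = 0.082 and 0.51), nor did Lox, a crosslinking enzyme (adjusted p = 0.36 and 0.26).

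Proteins that join the networks gave a mixed picture. Of 16 basement membrane partners 3 rose and 1 fell in the anterior pieces, and 1 rose and 1 fell in the posterior pieces. Among all genes 13.3% rose and 10.2% fell in the anterior pieces, and 8.56% and 2.93% in the posterior ones. Sparc, a collagen-binding protein, was at 385 and 503 TPM in the mutant anterior libraries against 223 and 199, and at 490 and 699 against 246 and 275 TPM in the posterior ones, rising by 1.06 ± 0.18 (adjusted p = 0.0045) and 1.17 ± 0.18 (adjusted p = 0.0058). Smoc1 rose by 1.24 ± 0.12 in the anterior pieces (adjusted p = 0.00038) and had a difference of -0.46 ± 0.12 in the posterior pieces (adjusted p = 0.044). Nid1, Nid2 and Hspg2, the nidogens and perlecan, did not pass in either piece, with adjusted p from 0.11 to 0.89. Of 14 fibrillar matrix partners 3 rose and 3 fell in the anterior pieces and 5 rose in the posterior pieces, beside the same shares of all genes. Postn, a matrix protein of mesenchyme, was at 81.0 and 91.0 TPM in the mutant posterior libraries against 30.1 and 28.8, a rise of 1.51 ± 0.14 (adjusted p = 0.00054), whereas its anterior values were 4.05 and 4.98 against 4.28 and 3.47 TPM.

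Of 11 tested collagen and laminin receptors 3 rose and 1 fell in the anterior pieces, where 23.6% of all genes were called, and 1 rose and 1 fell in the posterior pieces, where 11.5% were. Ddr1, a collagen-binding tyrosine kinase, rose by 1.13 ± 0.13 (adjusted p = 0.00081) and 0.95 ± 0.13 (adjusted p = 0.0035), and Itga3, an integrin alpha chain that binds laminin, fell with differences of -0.70 ± 0.12 (adjusted p = 0.005) and -0.61 ± 0.12 (adjusted p = 0.017). Itgb1, the shared beta chain, and Dag1 did not pass. Of 10 proteases and inhibitors 2 rose and 2 fell in the anterior pieces and 1 rose and 1 fell in the posterior pieces. The shares of all genes called are those given for the receptors. Timp3, which blocks matrix proteases, rose in both, by 0.60 ± 0.13 (adjusted p = 0.011) and 0.90 ± 0.13 (adjusted p = 0.0038).

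Markers of cell types that hold collagens and laminins are given here by their summed levels and their calls, beside the 13.3% higher and 10.2% lower of all genes in the anterior and the 8.56% and 2.93% in the posterior pieces. Endothelial markers, 10 genes with 2 called higher in each piece and none at 0, summed to 341 to 450 TPM in the mutant anterior libraries against 305 to 349, which overlap, and to 569 to 627 against 387 TPM in the posterior ones. Arch and limb mesenchyme markers, 7 genes with 1 called lower in the anterior and 1 higher in the posterior pieces, summed to 238 to 335 against 384 to 423 TPM and to 599 to 634 against 404 to 450 TPM. Parietal endoderm markers, 5 genes from cells that make a thick basement membrane, with 2 higher in the posterior and 1 higher and 1 lower in the anterior pieces, summed to 117 to 119 against 87.5 to 110 TPM and to 267 to 278 against 157 to 161 TPM. Neural crest markers, 6 genes with 5 lower in the anterior and 4 in the posterior pieces, summed to 168 to 171 against 278 to 298 TPM and to 58.4 to 60.1 against 104 to 112 TPM. Neural tube markers, 6 genes with 3 higher in each piece, summed to 980 to 1153 against 682 to 706 TPM and to 595 to 599 against 275 to 322 TPM.

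Visceral endoderm markers, 10 genes of which 2 were lower in the posterior pieces and 1 was at 0 in each anterior group, summed to 2125 to 2549 TPM in the wild-type posterior libraries, 236 to 1134 in the mutant posterior ones, 24.2 to 155 in the wild-type anterior and 18.1 to 26.3 in the mutant anterior ones. Primitive erythroid markers, 8 genes, summed to 25418 to 43784 TPM in the mutant anterior libraries against 4232 to 9906, and to 22107 to 43948 against 6348 to 7593 TPM in the posterior ones, and 5 of 8 rose in the anterior and 4 of 8 in the posterior pieces. Heart muscle markers, 8 genes, spread from 422 to 3547 TPM between the 2 mutant posterior libraries, and none of 7 tested passed for genotype by limma, with none at an unadjusted p under 0.05 either. In the wild-type comparison of pieces, 9 of 9 tested visceral endoderm, 4 of 7 mesenchyme, 3 of 7 heart, 3 of 6 surface ectoderm and 3 of 5 parietal endoderm markers were higher in the posterior piece. By contrast, 5 of 6 neural crest and 5 of 6 neural tube markers were lower there. The shares of all genes in that comparison were 7.86% higher and 6.65% lower. The part of each of these cell types in the collagen and laminin results was not tested.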

How the data were processed

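RNA with poly-A tails was sequenced in 8 libraries made without strand marking, per the labels' protocols. The submitters' processing notes list CASAVA 1.8.2, STAR and mm10, and no counting tool is named. TPM values came from 1 table that the authors deposited, in which each library sums to 1000000, so a gene class with a larger share lowers the rest. Symbols, gene types, coordinates and exon-union lengths were taken from GENCODE release M21. The product of TPM and length was a whole number of reads (to within 0.01) for 98.7% to 98.9% of nonzero values, which gave the depths above.

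A model with 4 group means was fitted by limma 3.58.1 (R 4.3.3) to log2(TPM + 1) of all 16699 genes that reached 1 TPM in 2 or more libraries, letting the spread depend on the mean, with 4 residual degrees of freedom. Two-sided p-values were adjusted over all genes of a comparison by Benjamini-Hochberg, with a threshold of 0.05. The fit was also run on simulated reads in which genes varied independently. That simulation does not cover the shared shifts of members within a library described above. Members and lists were chosen with earlier results of these data known. One item, a member of the rule, is not reported here, though counts and sums over the members include it. Values in every library are given for the other members that passed in any comparison and for the main type I to IV and laminin chains, and up to 4 called genes are named per list and comparison. Nidogens, perlecan, Serpinh1, Lox, Itgb1 and Dag1 were named after their values were seen, and so were Col18a1 and the members at the low end. Alternatives covered the pseudocount, the minimum level, 3 scalings, the spread, library weights, a replicate block and leaving out libraries. Coding-transcript lengths were added after seeing the data.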

Additional observations from a re-analysis of the deposited data

Results flagged for a closer look

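The genotype difference (anterior minus posterior) passed limma's test for 4 genes of the matrix lists, none of them a collagen or laminin. Bgn, a fibril-binding proteoglycan, had a difference of -1.43 (adjusted p = 0.045), with 6.81 and 10.2 TPM in the mutant anterior libraries against 21.5 and 17.2, and 10.6 and 11.1 TPM in the mutant posterior libraries against 8.79 and 8.15. Lum, another such proteoglycan, had -1.61 (adjusted p = 0.039), with 17.3 and 16.3 against 41.8 and 30.8 TPM in the anterior and 75.8 and 115.5 against 61.7 and 65.0 TPM in the posterior pieces. Postn had -1.33 (adjusted p = 0.02), with the values given above. Smoc1 had 1.70 (adjusted p = 0.0047), with 131 and 141 against 59.4 and 54.4 TPM in the anterior and 104 and 89.8 against 147 and 122 TPM in the posterior pieces.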

How the results depend on the processing

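No member that passed reversed its direction under any alternative. Of the calls, 1 of 8 (anterior), 0 of 14 (posterior), 1 of 13 (region, wild type) and 11 of 25 (region, mutant) held under all alternatives run, and 7, 11, 12 and 23 held under the 3 other scalings. The anterior count of 8 was 17 (16 higher) when TPM was rescaled over protein-coding genes, where 34.9% of all genes were called in place of 23.6%. The posterior count of 14 was 4 with no minimum level and 3 with library weights, where the share of all genes called was 2.86% and 6.6% in place of 11.5%. The wild-type region count of 13 was 8 with no minimum, where 5.5% of all genes were called in place of 14.5%. Leaving out a library, or both of a number, gave 2 to 11 in the anterior pieces, 0 to 14 in the posterior pieces, 0 to 1 for their difference (Col3a1), 1 to 18 for region in wild type and 15 to 24 in the mutant. The basement membrane medians then ran from 0.0345 to 0.40 (anterior), 0.0879 to 0.42 (posterior), -0.23 to 0.14 (difference) and 0.0076 to 0.47 (region, mutant), and the last was 0.38 with a minimum of 5 TPM. Where a library was left out, its partner was assumed to vary like the other groups; the cause of the other changes was not tested. Over all genes, the posterior split of 1430 higher and 489 lower was 1482 and 987 by median-of-ratios scaling, 1226 and 1050 by quantile normalization and 1723 and 1106 by protein-coding rescaling.

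Per longest coding transcript, in the order wild-type anterior, mutant anterior, wild-type posterior and mutant posterior, Col4a1 to Col4a2 was 2.10, 2.24, 2.46 and 2.32, Col4a5 to Col4a6 was 1.49, 2.53, 1.79 and 1.94, Lamb1 to Lamb2 was 7.76, 4.39, 8.95 and 5.91, and Col1a1 to Col1a2 was 0.174, 0.247, 0.904 and 1.06.

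With the replicate number as a block the counts were 7, 13, 0, 14 and 24 in the order anterior, posterior, difference, region in wild type and region in mutant. The block lost Lama4 (anterior, adjusted p = 0.051), Col2a1 (posterior, 0.055), Col4a1 (region, wild type, 0.06) and Col23a1 (region, mutant, 0.086), and Col3a1 and Col9a3 passed for region in wild type. Deviations of same-numbered libraries correlated at 0.136 in the mutant and 0.0216 in wild type, and the labels do not say that a number marks an embryo, so the numbers were not taken to pair the libraries.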
